A study of Sus scrofa with 13 samples.

Results

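A set of 65 Ensembl genes was detected at a clear level in a library made from mixed pig tissues and was at or close to 0 in every library made from a single tissue. The 65 genes were selected by their RPKM values (reads of a gene scaled to its length and to the total reads of the library): each was at 2 RPKM or more in the tissue mixture and under 0.2 RPKM in each of the 11 single-tissue libraries. They were found among 21607 Ensembl features, of which 10844 reached 2 RPKM in the tissue mixture and 3662 stayed under 0.2 RPKM in the 11 single-tissue libraries. Their level in the tissue mixture and their low level in single tissues are therefore given as a description, and the muscle mixture is the only library that the selection did not use.

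Many genes are transcribed in 1 cell type or a few, and a panel of organs leaves out those of cell types it lacks or holds in small numbers. Well-known cases are the genes of synaptic transmission in neurons, of the absorbing and mucous epithelium of stomach and gut, of red cell precursors in blood-forming tissue, and of serum proteins made before birth. Such genes serve as tissue markers, since few other cells transcribe them.

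The study sequenced total RNA of pigs after removal of ribosomal RNA with Ribo-Zero, as paired-end and strand-specific libraries, of which 11 came from Guizhou mini-pigs. Longissimus dorsi muscle was taken on the day of birth (day 0), at day 30 and at day 240. The other organs were taken at day 240: ovary and testis, kidney, adipose tissue, lung, spleen, liver and heart. A further 2 libraries were mixtures in which RNA samples of multiple breeds and time points had been combined in equal amounts, 1 from multiple tissues and 1 from longissimus dorsi muscle. The tissues, breeds and ages in the mixtures are not given in the sources used here, so tissue, breed, age and animal cannot be told apart as the origin of a difference between a mixture and a single tissue. Each tissue, stage or mixture had 1 library, so no value has a replicate error and no test between them was possible. The intervals below are exact Poisson 95% intervals of the reads and cover counting error only.

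The total number of reads behind the RPKM values ranged from 21685316 in ovary to 38581416 in testis for the single tissues. It was 108337358 for the tissue mixture and 63015726 for the muscle mixture. Only some reads were counted on a feature: 11.6% in spleen, 11.8% in liver and 11.9% in adipose tissue, but 38.0% in ovary. The share was 30.0% in the tissue mixture. Liver thus had 3629806 counted reads, ovary 8241185 and the tissue mixture 32507136. As RPKM rests on total reads, 0.2 RPKM was not an equal limit by counted reads. The effect on detection in each library was not tested. For a gene of 1 kb, 0.2 RPKM stood for 4.34 to 7.72 reads in the single-tissue libraries and 2 RPKM for 217 reads in the tissue mixture. Organ markers fitted the labels: each one found for testis, ovary, heart, liver, kidney, lung and spleen was highest in its own organ, and the exceptions were PCK1 of the adipose list, highest in kidney, and ACTA1 of the muscle list, higher in muscle at day 30 than at day 240. The liver marker APOA1 was low in liver, at 0.364 RPKM.

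Of the 65 genes, 35 carried a gene symbol and 30 were known by an identifier only, while 11654 of the 21607 Ensembl features had a symbol. Their level in the tissue mixture ranged from 2.01 to 109 RPKM with a median of 2.91 RPKM. Most were near the lower limit: 34 were between 2 and 3 RPKM, 9 were from 5 to under 10 RPKM and 8 were at 10 RPKM or more. Together they took 70121 reads of the tissue mixture, with 55 to 15730 reads a gene, and FABP6 and AFP held 26.7% of these reads. In contrast, the most reads recovered for a gene of the set in a single-tissue library were 27, and 10 of the genes were listed at 0 in all 11. For 24 of the 65 genes, above 0 in 1 to 3 libraries, the reads given here and below are lower bounds. SNAP25, GP1BB, TFF2 and PRR32 are among them. Sums of reads over the set are then lower bounds too.

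**Figure D1:**
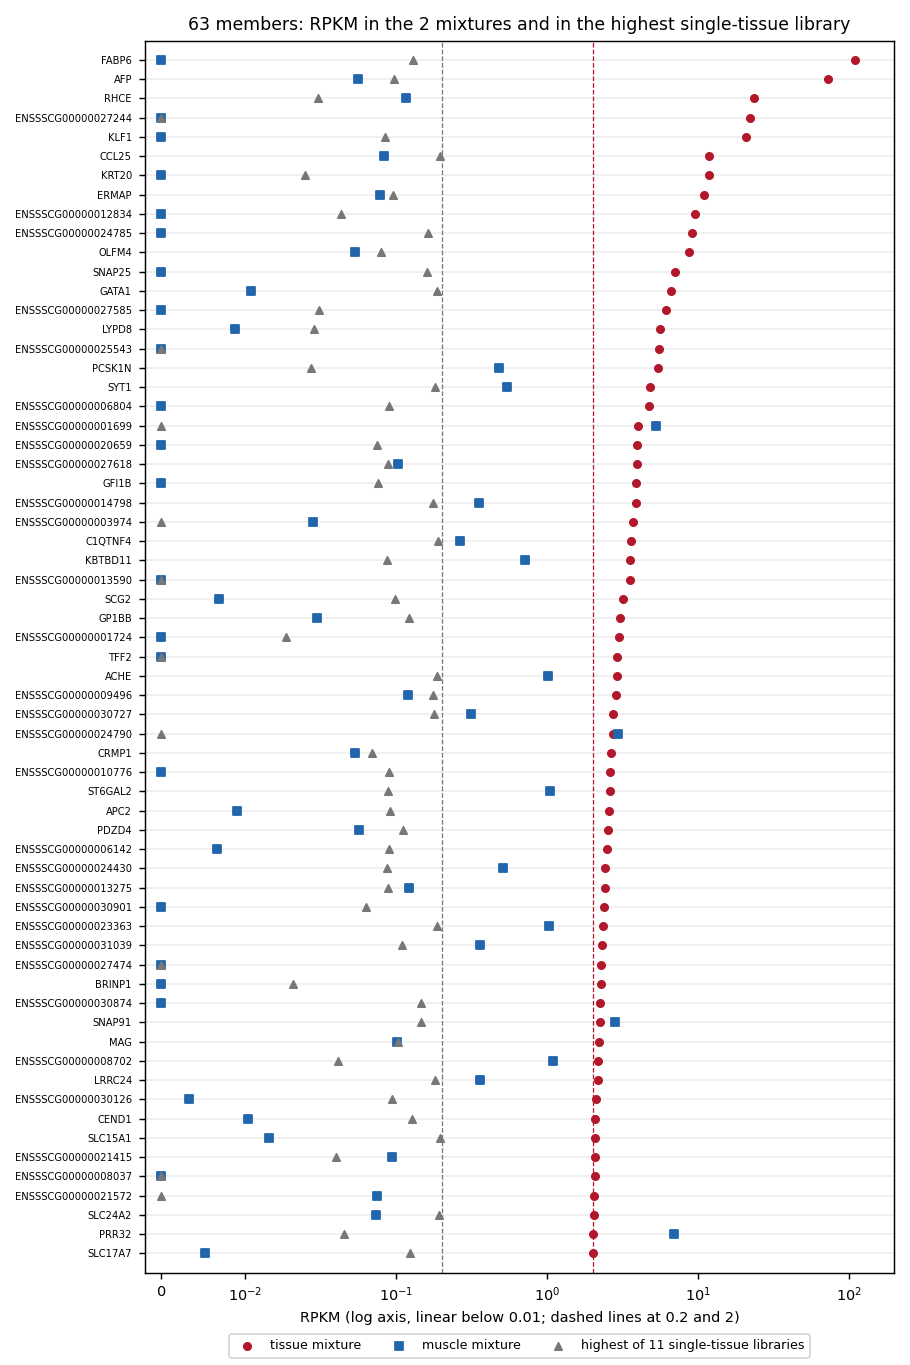
RPKM of 63 of the 65 genes (log axis, linear below 0.01) in the tissue mixture (red circles), the muscle mixture (blue squares) and the highest of the 11 single-tissue libraries (grey triangles), 1 row a gene, ordered by the tissue mixture. Red circles run from 2.01 to 109 RPKM, right of the limit at 2, grey triangles end at 0.194 RPKM, and 4 blue squares lie to the right of their red circle.

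The limits were sharp cuts in a continuous range. Just inside the lower limit were SLC17A7 at 2.01 RPKM, PRR32 at 2.03 RPKM and SLC24A2 at 2.04 RPKM in the tissue mixture, and just below it were PNMA2 at 1.97 RPKM, FBXO41 at 1.96 RPKM and GPR162 at 1.94 RPKM. Just inside the upper limit were SLC15A1 and CCL25, both at 0.194 RPKM in ovary, and SLC24A2 at 0.191 RPKM in muscle at day 30. Just outside it were ENSSSCG00000027494 at 0.206 RPKM in ovary, GRM5 at 0.209 RPKM in kidney and ENSSSCG00000003080 at 0.215 RPKM in ovary.

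The named genes were grouped by their known roles after their values had been seen, as 6 genes of red cells and platelets, 7 genes of gut and stomach, 1 fetal serum protein, 15 genes of the nervous system and secretory granules and 6 other genes. These groups describe the set and were not tested. The 10 named genes that kept both limits under both other scalings of the libraries were AFP, OLFM4, CCL25, KLF1, LYPD8, KRT20, PCSK1N, ERMAP, RHCE and SNAP25.

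**Figure D2:**
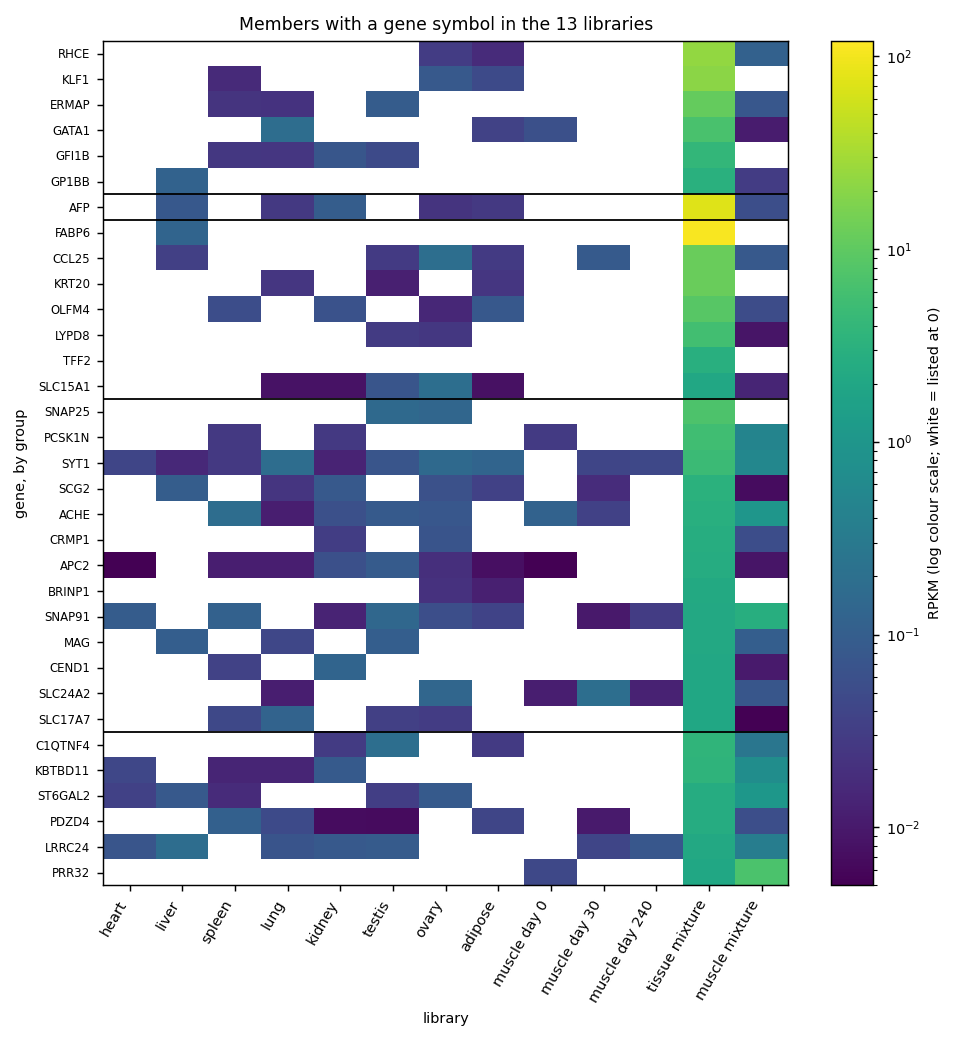
RPKM of 33 of the 35 genes with a symbol (rows) in the 13 libraries (columns) on a log colour scale, with values listed at 0 in white; black lines separate, from the top, genes of red cells and platelets, the fetal serum protein, gut and stomach, nervous system and secretory granules, and other genes. The tissue mixture column is filled in all rows, and the muscle mixture column is at 1 RPKM or more for ACHE, ST6GAL2, SNAP91 and PRR32 alone.

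The gene with the highest level of the whole set was FABP6, which encodes the bile acid binding protein of the ileum. It was at 109 RPKM in the tissue mixture (interval 105 to 113, 2974 reads), at 0 in the muscle mixture and at 0 in every single-tissue library except liver, where 1 read gave 0.129 RPKM. As FABP6 was above 0 in only 2 libraries, its reads are lower bounds. It met the limits under neither of the other scalings of the libraries, since its liver value then passed the upper limit. In the tissue mixture it was at 75.3 RPKM with the same total and at 45.2 RPKM with the same median ratio.

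The other 6 genes of gut and stomach were between 2.09 and 11.8 RPKM in the tissue mixture. CCL25, a chemokine of thymus and small intestine that draws T cells, was at 11.8 RPKM there (1217 reads), at 0.0835 RPKM in the muscle mixture, at 0.194 RPKM in ovary (4 reads) and at or below 0.0861 RPKM in the other single tissues. KRT20, a keratin of the intestinal and gastric lining, was also at 11.8 RPKM (2764 reads). It was at 0 in the muscle mixture and above 0 in lung, testis and adipose tissue only, with 1 or 2 reads in each.

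OLFM4, a secreted glycoprotein known from intestinal crypts and from neutrophils, was at 8.70 RPKM in the tissue mixture and at 0.0531 RPKM in the muscle mixture, with 0.0798 RPKM in adipose tissue as the highest single tissue. LYPD8, a surface protein of the colon epithelium, was at 5.62 RPKM in the tissue mixture and at 0.0285 RPKM or less in all other libraries. TFF2, a trefoil peptide of the gastric mucus, was at 2.91 RPKM (interval 2.51 to 3.35, 195 reads) and was the only named gene listed at 0 in all 11 single-tissue libraries. It was also at 0 in the muscle mixture.

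SLC15A1, the peptide transporter of the gut brush border, stood closest to both limits in this group. It was at 2.09 RPKM in the tissue mixture and at 0.0143 RPKM in the muscle mixture. Its 14 reads in ovary gave 0.194 RPKM, and testis followed at 0.0702 RPKM with 9 reads. None of the 7 genes of gut and stomach reached 0.2 RPKM in the muscle mixture, and their median difference between the mixtures was 5.84 on the log2(RPKM + 0.1) scale.

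The second highest gene was AFP, alpha-fetoprotein, the main serum protein of the fetus, made by fetal liver and yolk sac. It had the most reads of the set in the tissue mixture, 15730, and was at 73.0 RPKM (interval 71.9 to 74.1). In the muscle mixture it was at 0.0558 RPKM from 7 reads. Among the single tissues it was above 0 in kidney at 0.0968 RPKM, liver at 0.0816 RPKM, lung at 0.0272 RPKM, adipose tissue at 0.0266 RPKM and ovary at 0.0232 RPKM, with 1 to 7 reads in each. Liver at day 240 held 5 reads of AFP, while ALB, the albumin gene, was at 5495 RPKM in the same library and at 1322 RPKM in the tissue mixture.

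The 6 genes of red cells and platelets had a median of 8.73 RPKM in the tissue mixture and stayed at or below 0.116 RPKM in the muscle mixture. RHCE, which encodes a Rh blood group protein of the red cell membrane, was at 23.6 RPKM in the tissue mixture (interval 22.8 to 24.3, 3854 reads). It was at 0.116 RPKM in the muscle mixture and had 1 read each in ovary and adipose tissue. Whether a near-identical copy shares its reads was not tested.

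KLF1, the transcription factor that drives adult globin genes, was at 20.7 RPKM in the tissue mixture (interval 20.1 to 21.4, 3678 reads) and at 0 in the muscle mixture. Ovary at 0.0845 RPKM, adipose tissue at 0.0485 RPKM and spleen at 0.0168 RPKM were the only single tissues above 0. ERMAP, an erythroid membrane protein, was at 10.9 RPKM in the tissue mixture, at 0.0783 RPKM in the muscle mixture and at most at 0.0959 RPKM in a single tissue, testis.

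GATA1, the master regulator of red cell and platelet precursors, was at 6.57 RPKM in the tissue mixture and at 0.0109 RPKM in the muscle mixture. It came near the upper limit in lung, at 0.186 RPKM with 10 reads. GFI1B, a repressor needed for the same lineages, was at 3.90 RPKM in the tissue mixture and at 0 in the muscle mixture, with at most 0.0755 RPKM in kidney. GP1BB, a subunit of the platelet receptor for von Willebrand factor, was at 3.04 RPKM from 176 reads, with 1 read in the muscle mixture and 2 in liver. Spleen, a lymphoid organ that filters blood, held between 0 and 2 reads of each of these 6 genes.

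The largest group was that of the nervous system and secretory granules, with 15 genes between 2.01 and 7.05 RPKM and a median of 2.65 RPKM in the tissue mixture. The median was lower than in the groups of gut and stomach (8.70 RPKM) and of red cells and platelets, and 4 of its genes reached 0.2 RPKM in the muscle mixture.

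Among genes of transmitter release, SNAP25, a membrane protein of the vesicle fusion machinery, had the highest level of the group, 7.05 RPKM in the tissue mixture (interval 6.70 to 7.42), and was at 0 in the muscle mixture. Testis at 0.159 RPKM and ovary at 0.142 RPKM were the only single tissues above 0. SYT1, the calcium sensor of synaptic vesicles, was at 4.77 RPKM in the tissue mixture and 0.541 RPKM in the muscle mixture. It was the most widely detected gene of those with a symbol, above 0 in 10 of 11 single tissues, from 0.0136 RPKM in kidney to 0.180 RPKM in lung.

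SNAP91, a clathrin assembly protein that recycles synaptic vesicles, was one of the few genes higher in the muscle mixture. Its level was 2.23 RPKM in the tissue mixture (interval 2.09 to 2.37, 989 reads) and 2.83 RPKM in the muscle mixture (interval 2.63 to 3.04, 730 reads). These intervals do not overlap, but they leave out differences between animals and libraries. The 3 muscle libraries held 0, 1 and 4 reads of it, at day 0, day 30 and day 240.

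Secretory granule genes were represented by PCSK1N, which encodes an inhibitor of prohormone convertase, and SCG2, secretogranin II. PCSK1N was at 5.42 RPKM in the tissue mixture, at 0.479 RPKM in the muscle mixture and at 1 read in spleen, kidney and muscle at day 0. SCG2 was at 3.16 RPKM in the tissue mixture, with a single read in the muscle mixture and a highest single-tissue level of 0.0988 RPKM in liver.

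Among transporters, SLC24A2, a sodium-calcium exchanger, was at 2.04 RPKM in the tissue mixture against 0.0740 RPKM in the muscle mixture. SLC17A7, the vesicular glutamate transporter, was at 2.01 RPKM against 0.00519 RPKM, with 0.124 RPKM in lung as its highest single tissue. The enzyme gene ACHE, acetylcholinesterase of synapses and of the neuromuscular junction, was at 2.90 RPKM in the tissue mixture, 1.01 RPKM in the muscle mixture, 0.187 RPKM in spleen and 0.119 RPKM in muscle at day 0.

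MAG, a myelin glycoprotein, was at 2.20 RPKM in the tissue mixture and at 0.101 RPKM in the muscle mixture. CRMP1 and APC2, both linked to the neuronal cytoskeleton, were at 2.65 and 2.58 RPKM in the tissue mixture and at 0.0535 and 0.00898 RPKM in the muscle mixture. BRINP1 and CEND1, known from differentiating neurons, were at 2.26 and 2.09 RPKM in the tissue mixture, and BRINP1 was at 0 in the muscle mixture.

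The 6 other named genes were C1QTNF4, KBTBD11, ST6GAL2, PDZD4, LRRC24 and PRR32, at 2.03 to 3.60 RPKM in the tissue mixture. They were the group seen most often in the muscle mixture, where 5 of 6 reached 0.2 RPKM and PDZD4 was at 0.0565 RPKM. ST6GAL2, a sialyltransferase, was at 2.60 RPKM in the tissue mixture and at 1.04 RPKM in the muscle mixture. PRR32, a gene of a proline-rich protein, had the widest difference towards muscle: 2.03 RPKM in the tissue mixture (interval 1.79 to 2.28, 272 reads) and 6.97 RPKM in the muscle mixture (interval 6.39 to 7.58, 544 reads). Its only reads in a single tissue were 2 in muscle at day 0, at 0.0452 RPKM.

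The 30 genes without a symbol were between 2.05 and 22.1 RPKM in the tissue mixture, with a median of 2.75 RPKM. The 3 highest were ENSSSCG00000027244 at 22.1 RPKM, ENSSSCG00000012834 at 9.60 RPKM and ENSSSCG00000024785 at 9.14 RPKM, and all of them were at 0 in the muscle mixture. ENSSSCG00000027244 was above 0 in the tissue mixture alone, so the 409 reads given for it are a lower bound. Of the 10 genes at 0 in all single-tissue libraries, 9 had no symbol.

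The comparison of the mixtures asked how much of the set was also present in pooled muscle. In the muscle mixture the set had a median of 0.0297 RPKM. It held 22 genes at 0, for which 3 reads, a floor set here, would be 0.0156 to 0.278 RPKM. A further 26 were above 0 but under 0.2 RPKM and 17 were at 0.2 RPKM or more. These 17 are 26.2% of the set, while 93.5% of all 10844 Ensembl features at 2 RPKM or more in the tissue mixture reached 0.2 RPKM in the muscle mixture. Among 1429 features at 2 RPKM or more in the tissue mixture that were under 0.2 RPKM in the 3 muscle libraries and at or above it in another organ, 57.9% did so. The set was itself chosen to be low in the 3 muscle libraries, which the first of these backgrounds was not.

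Between the mixtures, 60 of the 65 genes (92.3%) were higher in the tissue mixture by 2-fold or more on the log2(RPKM + 0.1) scale, against 40.2% of the 10844 features. One gene, PRR32, was lower by 2-fold or more, against 6.45% of the 10844 features, and 4 were within 2-fold. The median difference was 4.54 on this scale for the set and 0.68 for the 10844 features. The set was chosen to be low in the 3 muscle libraries and the 10844 features were not. An excess of the tissue mixture is therefore largely built into the selection. As the fold is computed with 0.1 added to each RPKM, it understates the difference for genes near 0. With the libraries scaled to the same total or to the same median ratio, 59 and 57 of the 65 genes were higher by 2-fold or more, and the median difference was 4.04 and 3.38, beside 0.54 and 0.17 for the 10844 features.

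The 4 genes that were higher in the muscle mixture were PRR32, SNAP91 and 2 without a symbol, and these are also the 4 that reached 2 RPKM in both mixtures. ENSSSCG00000001699 was at 3.99 RPKM in the tissue mixture and at 5.29 RPKM in the muscle mixture. ENSSSCG00000024790 was at 2.75 RPKM and 2.96 RPKM. Both were at 0 in the 11 single-tissue libraries, the 3 muscle stages included. Under each of the other scalings the number higher in the muscle mixture was also 4 of 65. With the muscle mixture in place of the tissue mixture, the rule found 7 Ensembl features in all.

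The same limits were turned on each single library in place of the tissue mixture, as a scale for the number 65. They found 374 Ensembl features for testis, 55 for kidney and between 1 and 25 for each of the other 9 single-tissue libraries. Of the 374 features of testis, 50 reached 0.2 RPKM in the tissue mixture, whereas 54 of the 55 features of kidney did. Among the 10813 long noncoding RNAs that the study listed beside the Ensembl features, 4 met the rule.

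Within the single tissues, traces of the set were most widespread in lung, where 31 of 65 genes were above 0, followed by kidney and testis with 26 each and ovary with 25. Muscle and heart were lowest, with 8 genes above 0 in muscle at day 0, 11 at day 30 and 7 at day 240, and 10 in heart. Over all 21607 Ensembl features, 16838 were above 0 in lung, 17224 in testis, 16612 in ovary and 16212 in kidney. Heart had 13928, and muscle had 13238 at day 0, 13822 at day 30 and 13118 at day 240. The libraries thus differed in a similar way over all features, and the order is not particular to the set. The reads of all 65 genes summed to between 21 in muscle at day 240 and 164 in testis, compared with 2684 in the muscle mixture. A few genes carried much of the latter sum, with 730 reads for SNAP91, 544 for PRR32 and 230 for ENSSSCG00000024790. In the muscle mixture 22 genes had no reads. The muscle mixture had 1.63 to 2.91 times the total reads of the single tissues, and the part of depth in the number of genes above 0 was not tested.

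A total of 25 marker lists outside the organs and stages sequenced singly were set beside the named genes. Most were of sites or cell systems. Fetal and developing muscle is a stage of a tissue that was sequenced from the day of birth on. The homeobox list is a class of genes and no site. The lists were drawn up from general knowledge with earlier results of these data known. They took in 13 of the 35 named genes, in 8 lists. All 65 genes exceeded 10 times their highest single-tissue value in the tissue mixture by construction, which 1.56% of the 10844 features did. Of all 21607 Ensembl features, 50.2% were at 2 RPKM or more in the tissue mixture and 26.2% were higher there than in every single tissue, and the counts below are to be read beside these shares. Values of listed genes outside the set are given as examples chosen after they were seen.

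Of 58 brain and neuron markers found, 20 were at 2 RPKM or more in the tissue mixture. This share was below the 50.2% of all features. The set held 5 of the 20, among them SNAP25, SYT1, MAG and SLC17A7. For 39 of the 58 the tissue mixture was higher than every single tissue, and 8 of the 20 genes at 2 RPKM or more exceeded 10 times the highest of them. These genes include GFAP, a filament of astrocytes, at 5.85 RPKM against 0.428 RPKM in testis, and DCX, a microtubule protein of young neurons, at 4.93 RPKM against 0.361 RPKM in lung. DCX was also at 3.56 RPKM in the muscle mixture. Other brain markers were higher in a single tissue than in the tissue mixture. CALB1 was at 1.99 RPKM against 121 RPKM in kidney, and CAMK2A at 1.69 RPKM against 11.3 RPKM in heart. DDC was at 6.12 RPKM against 17.6 RPKM in kidney. Among 22 neuropeptide genes, 6 were at 2 RPKM or more, 9 were higher in the tissue mixture than in every single tissue and 4 were listed at 0 there. PCSK1N and SCG2 were in the set, while CCK, cholecystokinin, was at 14.3 RPKM but higher in heart, at 38.8 RPKM. Of the 2 markers found for the pineal gland, ACHE was in the set, though this gene is known from many other cells.

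In the bone marrow and granulocyte list, 7 of 14 genes found were at 2 RPKM or more, a share close to that of all features, and 13 of 14 were higher in the tissue mixture than in every single tissue. Each of the 7 exceeded 10 times its highest single-tissue value. They are red cell or platelet lineage genes, among them HBB, the adult beta globin, at 3577 RPKM against 52.7 RPKM in spleen, ALAS2, the first enzyme of heme synthesis in red cells, at 96.4 RPKM against 2.96 RPKM in spleen, and RHAG, EPB42, KEL and GFI1B. Only GFI1B met the upper limit. The 7 genes under 2 RPKM were those of granulocytes, with LTF highest at 1.34 RPKM and MPO, myeloperoxidase, at 0.410 RPKM. In the muscle mixture HBB was at 113 RPKM and ALAS2 at 1.96 RPKM. Reads shared among near-identical globin genes were not separated here.

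In the intestine list, 13 of 25 genes found were at 2 RPKM or more and FABP6 alone was in the set. In 18 of 25 genes the tissue mixture was higher than every single tissue. LGALS4, a galectin of gut epithelium, was at 9.03 RPKM against 0.397 RPKM in muscle at day 0, while VIL1, the brush border protein villin, was at 9.96 RPKM but higher in kidney, at 15.1 RPKM. In the stomach list, 11 of 12 genes were higher in the tissue mixture than in every single tissue, with 2 at 2 RPKM or more. Besides TFF2 this was ATP4B, a subunit of the gastric proton pump, at 8.94 RPKM against 1.76 RPKM in heart. The other stomach genes were at 1.34 RPKM (ATP4A) or less, and some were higher by little or from few reads. PGC was at 0.647 RPKM against 0.494 RPKM in kidney, and GAST at 0.420 RPKM against 0.400 RPKM in ovary. GHRL had 1 read in the tissue mixture.

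The placenta, embryo and fetus list had 8 genes found, 6 at 2 RPKM or more and 6 higher in the tissue mixture than in every single tissue. AFP was in the set, and HBM, an alpha-type globin, was at 224 RPKM against 3.05 RPKM in spleen. AHSG, fetuin, was at 940.0 RPKM against 345 RPKM in liver at day 240, so its transcript was not limited to the fetus. APOB was at 41.1 RPKM but higher in liver, at 192 RPKM. The genes under 2 RPKM were HBZ at 0.486 RPKM and LIN28A at 0. In the thymus list, 4 of 13 genes were at 2 RPKM or more and 2 of 13 were higher in the tissue mixture than in every single tissue. CCL25 was the gene in the set and the only one over 10 times its highest single tissue.

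The remaining 17 lists had no gene in the set. Of these, the lists of pituitary, retina, lens, thyroid and parathyroid, adrenal gland, pancreas, skin, salivary gland, mammary gland, bladder, and uterus, oviduct and cervix had no gene at 2 RPKM or more in the tissue mixture, although skin had 54 genes found and retina 26. In the list of fetal and developing muscle, 8 of 11 genes were at 2 RPKM or more, but none of these was low in all single tissues. In the muscle mixture, 7 of these 11 genes were higher than in every single tissue, against 11.8% of all Ensembl features. Many list genes had no matching symbol (58 of 84 were found for brain, 14 of 38 for bone marrow), so the counts cover the genes found.

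**Figure D3:**
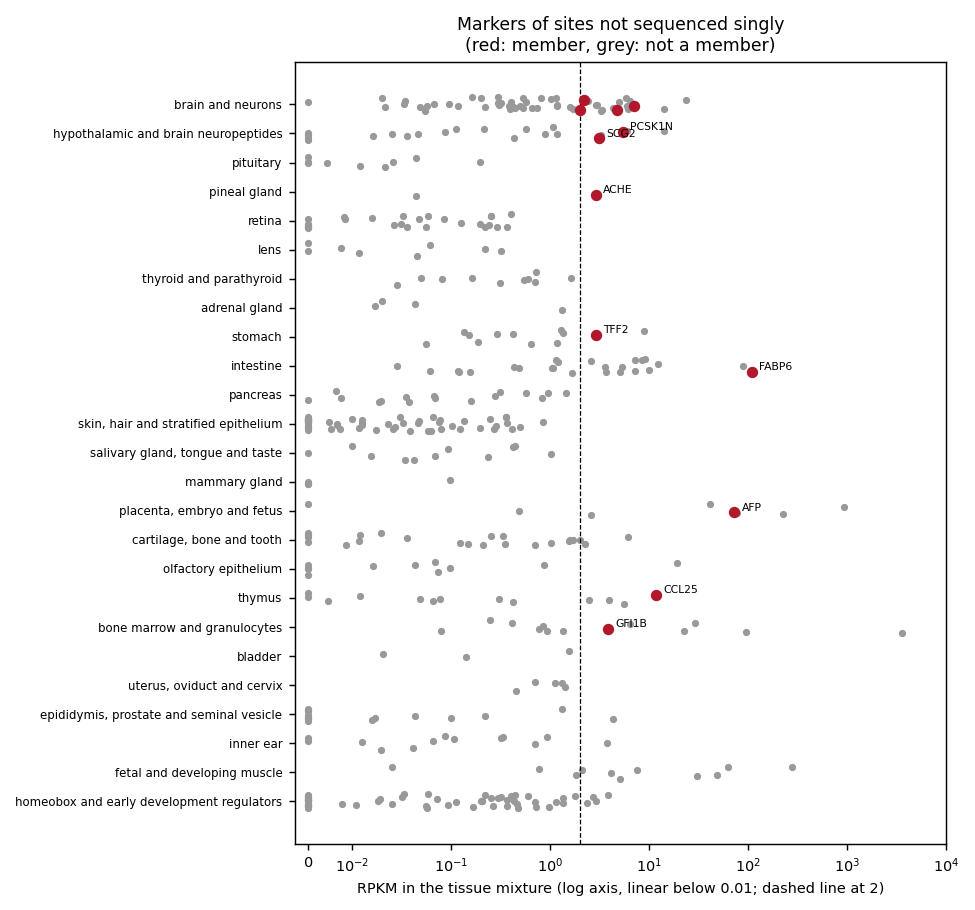
RPKM in the tissue mixture (log axis, linear below 0.01) of marker genes in 25 lists outside the organs and stages sequenced singly, 1 point a gene. Genes of the set are in red and the others in grey, with a dashed line at 2 RPKM. Points are spread vertically for visibility. Red points occur in 8 lists, with 4 unlabelled ones in the brain list, and the pituitary, retina, pancreas and skin lists lie wholly left of the line.

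The tissue mixture was also compared with the organs themselves. Summed over the markers found, it held 25.2% of the RPKM of liver markers in liver, 57.1% for spleen and 40.2% for muscle at day 240. The sum was 13.3% for kidney, 12.7% for ovary, 11.6% for lung and 9.65% for heart. Muscle had only 2 markers found, ACTA1 and CA3. Spleen and heart had 5 each, and liver, kidney, ovary and lung had 6 each. Single genes carried several of these sums, and the median over the markers was 31.5% for liver, 29.4% for spleen, 29.5% for muscle, 18.0% for kidney, 5.94% for ovary, 10.7% for lung and 24.6% for heart, so the order of these organs is not fixed by the sums. For testis the sum was 0.0167%: PRM1, a protamine of sperm chromatin, was at 3203 RPKM in testis and at 0 in the tissue mixture, and 5 of the 8 testis markers were listed at 0 there. The adipose sum was 22.8%, but rested on PCK1, which was highest in kidney, and PLIN1, the coat protein of fat droplets, was at 0.526 RPKM in the tissue mixture against 82.1 RPKM in adipose tissue. All these percentages use RPKM as deposited. RPKM of all features totalled 166431 in the tissue mixture, 65828 in liver, 61672 in spleen and 214285 in ovary. The percentages were not rescaled for such differences and are not shares of each organ in the mixture.

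**Figure D4:**
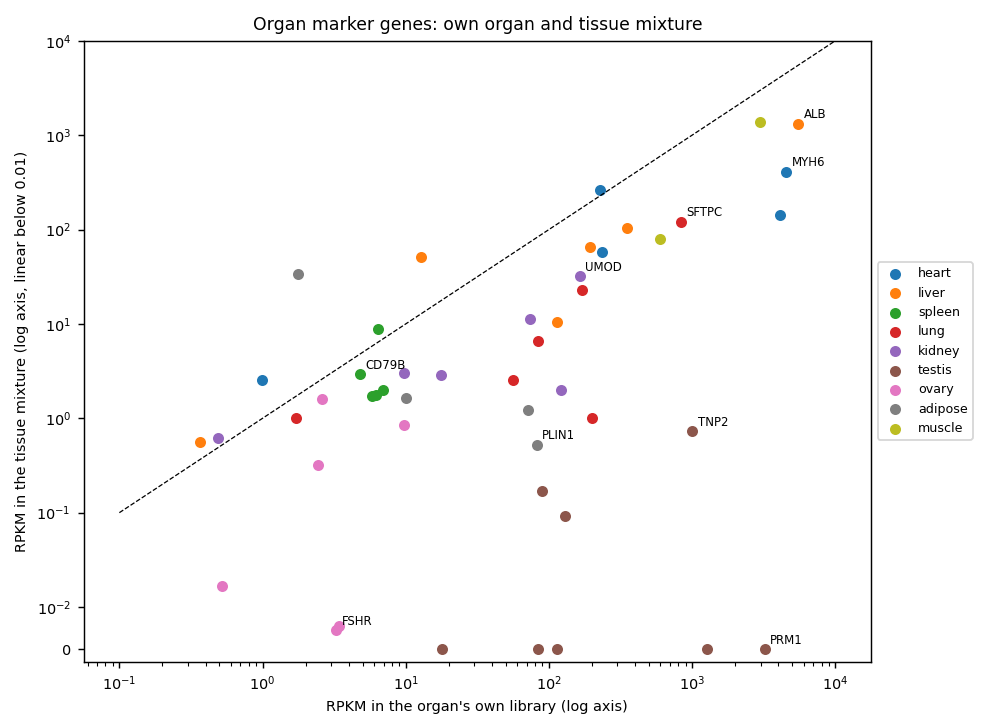
RPKM of organ marker genes in the library of their own organ at day 240 (x axis, log) and in the tissue mixture (y axis, log, linear below 0.01), coloured by organ, with a dashed line of equality. The 8 testis markers reach at most 0.725 RPKM in the tissue mixture, and 7 of the 48 markers drawn lie above the line.

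The 35 named genes lay on 15 chromosomes or scaffolds in the RefSeq annotation of Sscrofa11.1. The closest pair in gene order was GATA1 and PCSK1N, with 2 protein-coding genes between them, and the next was OLFM4 and SLC15A1 with 59.

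The number of genes depended on the limits without a step at the values used. It was 174 with a lower limit of 1 RPKM and 17 with 5 RPKM. With an upper limit of 0.1 RPKM it was 42 and with 0.5 RPKM it was 173. The number also changed with the scaling of the libraries: 31 genes met the limits with RPKM scaled to the same total, 28 of them in the set, and 19 with the same median ratio, 16 of them in the set. A total of 15 genes stayed under both.

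**Figure D5:**
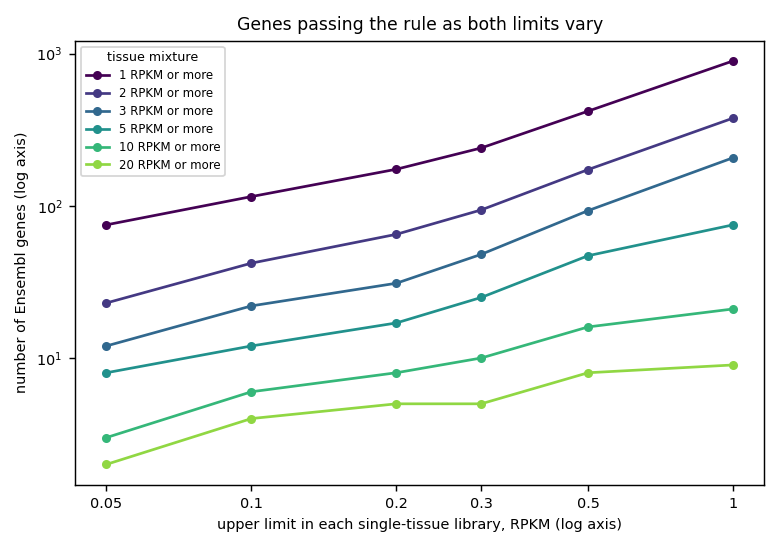
Number of Ensembl genes (log axis) that met the rule against the upper limit in each single-tissue library (0.05 to 1 RPKM, log axis), with 1 line for each lower limit in the tissue mixture (1 to 20 RPKM). The line for 2 RPKM passes from 23 genes at an upper limit of 0.05 to 65 at 0.2 and 377 at 1, with no level stretch.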

How the data were processed

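Total RNA was analysed in 13 libraries with 1 library per group, grouped by the sample labels. The authors mapped reads with TopHat 1.3.2, assembled transcripts with Cufflinks, obtained counts with htseq-count and deposited them as RPKM, 1 value per feature. The genome build of these libraries and the protocol of each library (SMART or dUTP, per the labels) are not given in the sources used here.

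Total reads, gene lengths and whole reads were recovered from the deposited RPKM values. The length taken was the smallest at which all reads of a gene were whole to about 1e-07 of a read. Wholeness was thus the criterion and is no check of the recovery. The recovery was tested on simulated data. Lengths and reads are lower bounds for 24 of the 65 genes, which were above 0 in 1 to 3 libraries. Intervals are exact Poisson (scipy 1.17.1), and no test was possible. For a count of 0 a floor of 3 reads was set, which is less than the upper end of its Poisson interval.

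The members and lists were chosen with earlier results of these data known. Genes named were the 20 highest in the tissue mixture, the 10 highest in the muscle mixture, those on a list (up to 6 each) and the 3 nearest each limit on either side, among genes with a symbol, and the 3 highest without one. CRMP1, APC2, BRINP1, CEND1, PDZD4, 2 genes without a symbol in both mixtures and the marker genes were added after their values were seen. Symbols came from gene ID tables, and RefSeq was used for gene order only. Alternatives were other limits, pseudocounts of 0.01 and 1, 2 scalings and each single library left out. Some items under the naming rule are not reported here and are not drawn in the plots, but they are in the counts.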

Additional observations from a re-analysis of the deposited data

How the results depend on the processing

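No paired analysis was possible because the result comes from no test and each group had 1 library. With a lower limit of 1 and 5 RPKM, the number of genes was 174 and 17, those at 0.2 RPKM or more in the muscle mixture 44 and 1, and the median difference between the mixtures 3.60 and 6.16 on the log2 scale. With an upper limit of 0.1 and 0.5 RPKM the numbers were 42 and 173, with 8 and 77 in the muscle mixture, and a limit of 0.5 moved the median to 3.62. Requiring 0 in all single tissues left 10 genes, 2 of them in the muscle mixture. Scaling to the same total gave 31 genes and 4, and scaling to the same median ratio 19 and 1. An alternative chosen after seeing the data, over 10 times the highest single tissue in place of the upper limit, gave 169 genes and 86. Pseudocounts of 0.01 and 1 gave medians of 6.98 and 1.83. Leaving out 1 single-tissue library at a time gave 65 to 100 genes, 17 to 28 in the muscle mixture and medians of 4.37 to 4.66. Without testis the number was 100, with 28 in the muscle mixture, the only such library that moved a count by over 1.5 times. The median stayed above 0 in every alternative run.

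The limits of the data are 1 library per group, mixtures of undisclosed make-up, and a difference in depth between the mixtures and the single tissues. RPKM totals and the share of reads counted on features also differed between the libraries. Counting error alone is covered by the intervals. In short genes few reads stand for the upper limit: 2 reads of ENSSSCG00000030727, with a length of 305 nucleotides, were 0.177 RPKM in lung.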

Other observations

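Leaving a single library out of the rule brought in genes that missed the set through that library alone. The feature with the highest level in the tissue mixture among them was ENSSSCG00000014727, without a symbol, at 571 RPKM in the tissue mixture and 1.88 RPKM in muscle at day 30. Without kidney the highest were UMOD, uromodulin of the kidney tubule, at 31.9 RPKM in the tissue mixture and 165 RPKM in kidney, and SLC12A1, the salt transporter of the same tubule segment, at 11.2 RPKM and 73.4 RPKM. Without lung, SFTPB, a surfactant protein, was at 23.0 RPKM and 169 RPKM in lung. Without heart, TBX20, a cardiac transcription factor, was at 13.4 RPKM in the tissue mixture and 7.47 RPKM in heart.

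Of the 11 genes found in the list of fetal and developing muscle, 7 were higher in the muscle mixture than in every single tissue and 4 were not, MYH8, MYF6, MYBPH and NCAM1. MYL4, the embryonic and atrial myosin light chain, was at 92.2 RPKM in the muscle mixture and 48.4 RPKM in the tissue mixture, against 2.42 RPKM in heart as the highest single tissue. MYH3, the embryonic myosin heavy chain, was at 380.2 RPKM in the muscle mixture and 96.3 RPKM in muscle at day 240, its highest single-tissue level. Myosin heavy chain genes are a family of close copies, and how their reads were divided was not tested.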
